A study of Danio rerio with 6 samples.

Results

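The connexin and pannexin genes of the zebrafish heart were described in cells of the sinoatrial ring (SAR), the band of cells around the inflow of the atrium, and in the rest of the heart (ROH). A gene was taken as a member where its symbol had the form of a connexin name (cx with a number, or gja, gjb, gjc, gjd or gje with a number) or of a pannexin name (panx with a number), which gave 40 of the 31465 quantified genes, 36 connexins and 4 pannexins. The rule reads names only and no expression value, but it was chosen with earlier results of these data known. By group, 17 members were alpha connexins (gja), 8 beta (gjb), 4 gamma (gjc), 5 delta (gjd) and 2 epsilon (gje). SAR and ROH cells came from hearts of the same transgenic line, sqet33mi59BEt, an enhancer trap that places GFP in the ring, at 72 hours post fertilization. The SAR libraries hold the GFP+ cells of the sort and the ROH libraries the GFP- cells, with 3 libraries of each, numbered 1 to 3. Per the methods, the hearts of each pool of embryos were dissociated and the cells sorted into both fractions, so that a SAR and a ROH library with the same number were taken to share a pool. No other genotype or treatment was used. GFP in this line marks a region, so the SAR libraries may hold cells other than pacemaker cells, and ROH may hold any other cell that came with the heart, blood included.

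Connexins are the proteins of gap junctions. A ring of connexins in the membrane of one cell docks onto a ring in the next cell and opens a channel between them, through which current passes from cardiomyocyte (CM) to CM. Channels of different connexins conduct differently, and in the mammalian heart Connexin43 (GJA1) is the main connexin of the working myocardium, whereas the nodes that delay or start the beat are rich in connexins of lower conductance. Pannexins have a similar fold but form channels in a single membrane, known mainly for the release of ATP. The values asked here were which of these genes marked the GFP+ cells and which the GFP- cells.

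The connexin with the highest level differed between the fractions. In SAR it was cx43.4, a gamma connexin, in every library. In ROH it was cx43, the fish gene for Connexin43, or the fish alpha connexin cx32.3, depending on the library. There cx43.4 overlapped with both in level, so a single main connexin of ROH is not set by these data. Against ROH, SAR overexpressed cx30.3 and had more cx43.4, and it underexpressed cx32.3, cx28.9 and, by a smaller fold, cx43. No other tested member, the pannexins included, passed the test, except that gja4 was also called lower in SAR when the replicate number was added as a block. A member was called overexpressed at an adjusted p below 0.05 and a log2 fold change of at least 1.5 in edgeR's quasi-likelihood test, with SAR as the numerator and p adjusted over all 21969 tested genes.

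Of the 40 members, 29 had enough counts to be tested. Of these, 1 was called higher in SAR (cx30.3) and 2 higher in ROH (cx32.3 and cx28.9), or 3 with the replicate block. Over the whole transcriptome, 2.84% of tested genes passed the same rule on the SAR side and 3.70% on the ROH side without the block. With the replicate block, 719 and 1040 of all 21969 tested genes passed it. A handful of members is read against these shares without a claim that connexins are enriched. At an adjusted p below 0.05 without the fold threshold, 2 members were higher in SAR and 3 in ROH, beside 4.88% and 5.45% of all tested genes. On the CPM scale used for the fit, all SAR libraries lay above all ROH libraries for 2 members and below them for 6, against 14.3% and 15.6% of all tested genes. The median log2 fold change of the tested members was 0.07 and that of all tested genes 0.03.

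**Figure D1:**
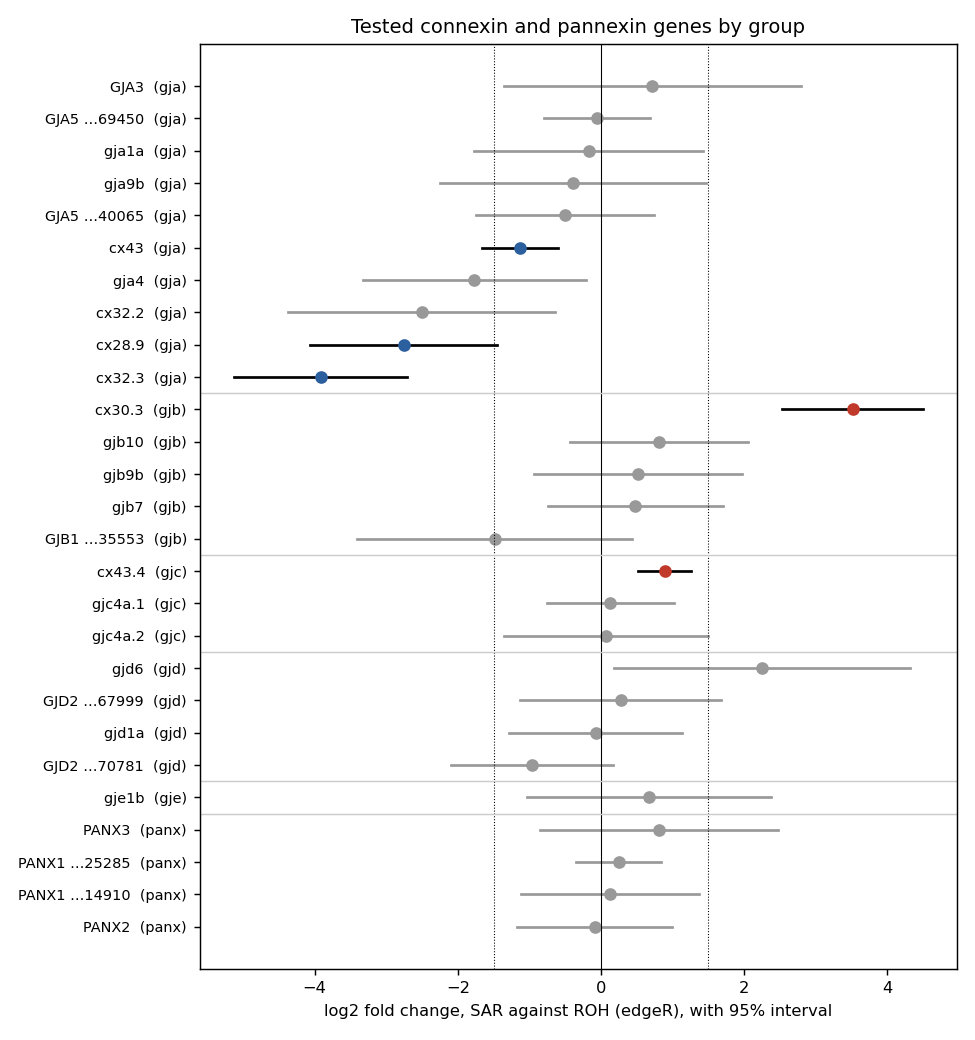
Log2 fold change of SAR against ROH (x axis) with its 95% interval for 27 of the 29 tested connexin and pannexin genes, ordered by group (gja, gjb, gjc, gjd, gje, panx), from edgeR. Coloured points have an adjusted p below 0.05, red for higher in SAR and blue for higher in ROH, and dotted lines mark a log2 fold change of 1.5 in either direction. The 3 blue points all lie in the gja group, at -1.13, -2.76 and -3.91, and the red points are cx30.3 at 3.51 and cx43.4 at 0.89.

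cx43.4 (ENSDARG00000007099, gjc4b in RefSeq) belongs to the gamma group, as does mammalian Connexin45, the low-conductance connexin of the nodes, and in zebrafish it is known from left-right patterning. Its level was 101, 112 and 102 TPM (a transcript level corrected for gene length and library total) in SAR replicates 1, 2 and 3 and 49.5, 55.4 and 61.0 TPM in ROH replicates 1, 2 and 3. The SAR libraries were all higher than the ROH libraries and lay close together in each fraction, with means of 105 ± 5.98 and 55.3 ± 5.73 TPM (SD, n = 3 each). The log2 fold change was 0.89 with a standard error of 0.16 (95% interval 0.52 to 1.26, edgeR adjusted p = 0.0121), a 1.85-fold difference that is below the fold threshold. Without ROH replicate 1 the adjusted p was 0.0601 and without ROH replicate 2 it was 0.0881, at log2 fold changes of 0.84 and 0.87.

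cx43 (ENSDARG00000041799, gja1b in RefSeq) had 19.8, 44.2 and 27.8 TPM in SAR and 98.8, 59.9 and 65.5 TPM in ROH. Every ROH library was above every SAR library, with SAR replicate 2 closest to the ROH range. The means were 30.6 ± 12.4 TPM in SAR and 74.7 ± 21.0 TPM in ROH (SD, n = 3 each). In the fit cx43 was lower in SAR by a log2 fold change of -1.13 (standard error 0.23, 95% interval -1.66 to -0.60, edgeR adjusted p = 0.0189), also under the fold threshold. This difference kept an adjusted p below 0.05 in only 3 of the 6 fits with 1 library left out: without SAR replicate 3, ROH replicate 1 or ROH replicate 3 the adjusted p was 0.0650, 0.0606 and 0.0569.

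Within each library, the ratio of cx43.4 to cx43 in TPM also separated the fractions, which follows from the values above and is no further test. It was 5.12, 2.53 and 3.67 in SAR, where cx43.4 exceeded cx43 in every library, and 0.501, 0.926 and 0.931 in ROH, where cx43.4 was below cx43 in every library. In all SAR libraries cx43.4 was first and cx43 second among the members. The order differed among ROH libraries, with cx43 first and cx32.3 second in replicate 1, cx32.3 ahead of cx43 in replicate 2, and cx43 first with cx43.4 second in replicate 3. Over the ROH libraries cx32.3 (49.1 to 86.1 TPM), cx43 (59.9 to 98.8 TPM) and cx43.4 (49.5 to 61.0 TPM) overlapped in level. The order of these 3 there is not set by these data.

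cx32.3 (ENSDARG00000041787, gja13.1 in RefSeq) is the connexin that the study discusses for its slow conduction and already reports as underexpressed in SAR. Here it was high in every ROH library and low in every SAR library. It was at 1.56, 8.49 and 3.04 TPM in SAR and at 86.1, 82.2 and 49.1 TPM in ROH. The groups did not overlap, and the highest SAR library, replicate 2, was still far below the lowest ROH library. The log2 fold change was -3.91 (standard error 0.53, 95% interval -5.13 to -2.70, edgeR adjusted p = 0.00415), or 15.1-fold, and the call held in all 17 alternative fits. cx32.3 therefore accounted for 22.3 ± 3.44% of summed connexin and pannexin TPM in ROH and for 1.59 ± 1.03% in SAR (SD, n = 3 each).

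cx28.9 (ENSDARG00000041797, gja12.1 in RefSeq), a related fish alpha connexin, followed cx32.3 at a lower level, with 0.850, 6.51 and 2.36 TPM in SAR and 13.4, 26.5 and 22.2 TPM in ROH. The fractions did not overlap, and within SAR the order of the libraries was that of cx32.3, with replicate 2 highest. The log2 fold change was -2.76 (standard error 0.57, 95% interval -4.07 to -1.45, edgeR adjusted p = 0.0203). Without SAR replicate 3 or ROH replicate 2 the adjusted p was 0.0665 and 0.0650. Salmon shares out reads that match several transcripts, and the estimated counts of cx28.9 were not whole numbers (beyond a tolerance of 0.01) in any library, so part of its reads were divided with other transcripts. Those of cx30.3 were whole in 1 of 6 libraries, and those of cx32.3, cx43 and cx43.4 in all 6.

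cx30.3 (ENSDARG00000042707, gjb8 in RefSeq) was the beta connexin that marked SAR. The name table assigns it to GJB6, whose mammalian product, Connexin30, is known from skin and the inner ear. The study's background names Cx30 as a gap junction protein of low conductance in pacemaker cells of the sinoatrial node. Its text does not link that Cx30 to cx30.3, and whether the 2 correspond, or how cx30.3 conducts, was not tested. cx30.3 was at 14.8, 23.4 and 16.7 TPM in SAR and at 0.585, 2.51 and 0.907 TPM in ROH. All SAR libraries were well above all ROH libraries, and the value in ROH replicate 1 rests on 1 estimated count, below the 3 counts taken as detectable. The log2 fold change was 3.51 (standard error 0.43, 95% interval 2.53 to 4.50, edgeR adjusted p = 0.00272), an 11.4-fold difference, and it was 3.42 without ROH replicate 1. As for cx28.9, part of its reads were divided with other transcripts. In SAR, cx30.3 thus stood at a level near that of cx43, with a cx43 to cx30.3 ratio of 1.34, 1.89 and 1.66, whereas in ROH the ratio was 169, 23.9 and 72.2.

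**Figure D2:**
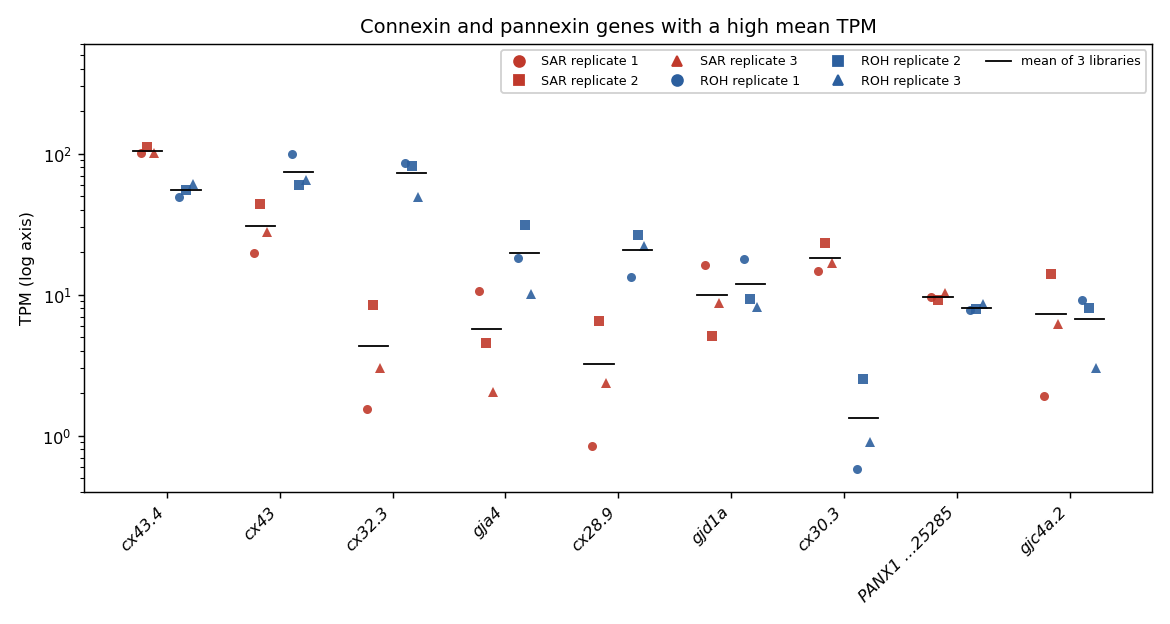
Level in TPM (log axis) of 9 connexin and pannexin genes with a high mean over all libraries, in SAR (red) and ROH (blue) replicates 1 (circle), 2 (square) and 3 (triangle), with the mean of 3 libraries as a line. The SAR libraries lie above the ROH libraries for cx43.4, cx30.3 and, by a small margin, PANX1, and below them for cx43, cx32.3 and cx28.9, while gja4, gjd1a and gjc4a.2 overlap. The end of the identifier is added to PANX1, a symbol given to 2 genes.

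Because TPM is corrected for gene length, the members could be added within a library. Their sum was 218, 312 and 228 TPM in SAR and 359, 335 and 268 TPM in ROH. The sum was lower in SAR within each numbered pair, but the ranges overlapped. The mean difference of -0.35 on the log2 scale was of the order of the spread between libraries (SD 0.25). A difference in total connexin and pannexin transcript was therefore not shown, and the pairs were not tested. Without cx43.4, the most abundant member, the difference was -0.87. The make-up of the sum differed: alpha connexins made up 21.9 ± 3.94% in SAR and 63.9 ± 2.62% in ROH, gamma connexins 45.8 ± 4.15% and 20.4 ± 3.72%, and beta connexins 19.0 ± 3.06% and 6.12 ± 1.11% (SD, n = 3 each). For these 3 groups the SAR and ROH libraries did not overlap. Shares within a library depend on each other, since one group can rise in share only where another falls, and they were not tested.

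**Figure D3:**
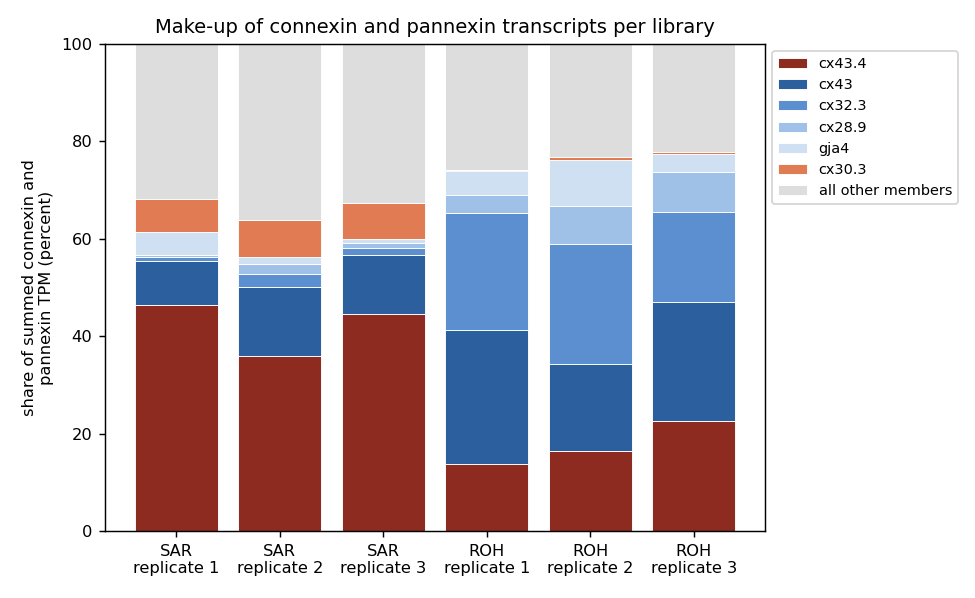
Share of the summed connexin and pannexin TPM (percent, y axis) taken by 6 members and by all others in each library. cx43.4 (dark red) takes 35.9 to 46.5% in SAR and 13.8 to 22.7% in ROH, and cx32.3 (mid blue) takes 0.714 to 2.72% in SAR and 18.3 to 24.5% in ROH.

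Of the 11 tested alpha connexins, 10 had a lower level in SAR, 2 were called and 1 more had an adjusted p below 0.05. Among all 21969 tested genes, 10488 had a lower level in SAR, 3.70% were called on that side and 5.45% had an adjusted p below 0.05 there. gja4 (ENSDARG00000070357), the connexin of zebrafish pigment stripes and, as mammalian Connexin37, of arterial endothelium, was at 10.6, 4.52 and 2.05 TPM in SAR and at 18.2, 31.0 and 10.1 TPM in ROH. The fractions overlapped, with SAR replicate 1 slightly above ROH replicate 3, and the difference did not pass the test (log2 fold change -1.77, standard error 0.68, edgeR adjusted p = 0.155). Within each numbered pair, however, SAR was below ROH, and gja4 was called once the fit took the pairs as blocks (log2 fold change -2.04, edgeR adjusted p = 0.0301). Without SAR replicate 1 it was -2.59 with an adjusted p of 0.0359. The fish alpha connexin cx32.2 (ENSDARG00000076789) was low throughout, listed at 0, 0.427 and 1.15 TPM in SAR and at 3.74, 2.47 and 4.16 TPM in ROH. Its fractions did not overlap, but the test gave an adjusted p of 0.0959 (log2 fold change -2.50, standard error 0.81).

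The genes named after mammalian GJA5, whose product Connexin40 is the high-conductance connexin of atrium, Purkinje fibres and arterial endothelium, gave no difference. The name table gives this symbol to 2 identifiers, and which fish copy each one is was not settled here. GJA5 (ENSDARG00000069450) was at 4.47, 9.65 and 6.02 TPM in SAR and at 5.40, 9.33 and 5.10 TPM in ROH. The ranges almost coincided, and the 95% interval of the log2 fold change, -0.79 to 0.69, leaves room for a modest difference either way. GJA5 (ENSDARG00000040065) was at 2.51, 3.89 and 1.27 TPM in SAR and at 1.61, 5.03 and 3.29 TPM in ROH, overlapping as well (95% interval -1.74 to 0.74).

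The remaining alpha connexins were scarce. gja1a, the second fish gene related to Connexin43, was at 0.111, 0.758 and 0.599 TPM in SAR and at 0.708, 0.494 and 0.616 TPM in ROH, far below cx43 in every library. GJA3 (gja3 in RefSeq), a lens connexin that is also known from conduction in the zebrafish ventricle, was at 0.826, 0.704 and 0.270 TPM in SAR and at 1.02, 0.480 and 0.104 TPM in ROH. Neither passed the test, with 95% intervals of -1.78 to 1.43 and -1.36 to 2.80. gja9b, known from the retina, stayed at or below 1.21 TPM in every library and overlapped between the fractions.

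Among the 6 tested beta connexins, 5 had a higher level in SAR, as had 11481 of all 21969 tested genes, but only cx30.3 passed the test. gjb10, at 5.12 to 8.85 TPM in SAR and 2.19 to 9.10 TPM in ROH, overlapped. gjb9b and gjb7 did not exceed 2.41 TPM, and GJB1 (ENSDARG00000035553), named after the gene of liver and Schwann cell Connexin32, was the exception in direction, at 0, 0.696 and 0.353 TPM in SAR and at 1.17, 0.784 and 1.46 TPM in ROH (log2 fold change -1.49, edgeR adjusted p = 0.345).

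The gamma group consisted of cx43.4 and little else at a high level. gjc4a.2 was at 1.91, 13.9 and 6.25 TPM in SAR and at 9.15, 8.07 and 3.04 TPM in ROH, and no difference passed the test (95% interval of the log2 fold change -1.35 to 1.49). gjc4a.1 was between 1.44 and 2.13 TPM in all libraries.

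Of the delta connexins, which include the neuronal connexins of electrical synapses, gjd1a was the most abundant, at 16.2, 5.14 and 8.67 TPM in SAR and at 17.9, 9.39 and 8.18 TPM in ROH. In both fractions replicate 1 was the highest library, and the 95% interval of the log2 fold change was -1.28 to 1.13. The summed TPM of the 5 neuron markers was likewise highest in replicate 1 of each fraction, at 416 in SAR and 488 in ROH against 166 to 289 in the other libraries, and its part in the gjd1a level was not tested. gjd6 (ENSDARG00000017927, cx36.7), a connexin of the early zebrafish heart, was at 2.02, 3.85 and 0.627 TPM in SAR and at 0, 0.691 and 0.273 TPM in ROH. The fractions overlapped through SAR replicate 3, and the difference did not pass the test (log2 fold change 2.25, standard error 0.90, edgeR adjusted p = 0.173). The genes named GJD2, after the main neuronal connexin of mammals, were at 1.84 to 5.58 TPM in SAR and 2.07 to 3.71 TPM in ROH (ENSDARG00000067999) and at 1.01 to 1.23 TPM in SAR and 1.58 to 3.72 TPM in ROH (ENSDARG00000070781). The latter did not overlap between fractions, at an adjusted p of 0.296.

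The pannexins did not mark either fraction. PANX1 (ENSDARG00000025285), an ATP release channel, was at 9.64, 9.19 and 10.3 TPM in SAR and at 7.84, 7.90 and 8.61 TPM in ROH, with a small spread in each fraction. Its TPM did not overlap between fractions, but on the CPM scale of the fit it did, and the log2 fold change was 0.25 (95% interval -0.35 to 0.84, edgeR adjusted p = 0.657). The second gene named PANX1 (ENSDARG00000014910) was at 0.893, 2.92 and 1.19 TPM in SAR and at 2.15, 1.65 and 0.990 TPM in ROH. PANX2, a pannexin best known from brain, was at 0.804, 1.35 and 1.08 TPM in SAR and at 0.486, 1.45 and 1.05 TPM in ROH. PANX3, known from bone and skin, was at 0.327, 1.34 and 0.690 TPM in SAR and at 0, 0.756 and 0.268 TPM in ROH. These 3 overlapped between the fractions, with adjusted p from 0.592 to 0.951.

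The epsilon connexin gje1b, named after the gene of a lens connexin, was at 0.733, 6.08 and 1.28 TPM in SAR and at 1.54, 1.86 and 1.48 TPM in ROH, so that its SAR mean rests on replicate 2. The 11 untested members included gja2, gja10a, GJA10, gja11, gja12.2, gjb9a, GJB1 (ENSDARG00000058064), gjd5 and GJE1. None of the 11 exceeded 2.93 TPM or 63.2 estimated counts in any library, and the highest TPM among them, GJE1 in ROH replicate 1, was a single estimated count. gjd5 was listed at 0 in all libraries but SAR replicate 2. At this depth these members were left out of the main fit, so whether they differ between the fractions was not judged.

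Several of the members that were low in SAR are neighbours in the genome. In the order of protein-coding genes on the RefSeq assembly GRCz12tu (chromosome 20), cx43, cx32.2, gja12.2, tbc1d32, cx28.9, cx32.3 and gja11 follow each other, so that 6 alpha connexins lie in a run of 7 genes. The 4 that could be tested were all lower in SAR, with log2 fold changes of -1.13 (cx43), -2.50 (cx32.2), -2.76 (cx28.9) and -3.91 (cx32.3), of which 3 had an adjusted p below 0.05. Among all 21969 tested genes, 10488 had a lower level in SAR and 5.45% had an adjusted p below 0.05 on that side. Whether position in the run matters was not tested. The other 2, gja12.2 and gja11, did not exceed 0.709 TPM in any library. The run is not a uniform block, since levels within ROH ranged from 0.192 TPM (gja12.2, mean) to 74.7 TPM (cx43, mean). Neighbouring connexins elsewhere did not all move together: cx30.3 lies next to gja3 (GJA3 here), whose log2 fold change was 0.72 with an adjusted p of 0.725, and gja4 shares a run of 4 genes with gjb9b, with log2 fold changes of -1.77 and 0.51, neither of which passed the test without the replicate block.

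**Figure D4:**
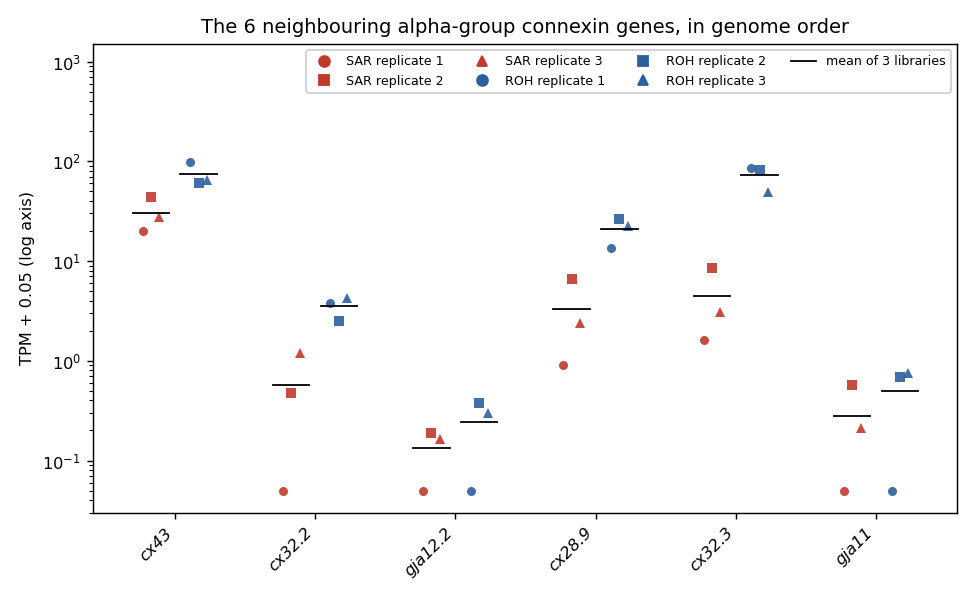
Level (TPM + 0.05, log axis) of the 6 alpha connexins of the run on chromosome 20 in genome order, tbc1d32 left out, in SAR (red) and ROH (blue) replicates 1 (circle), 2 (square) and 3 (triangle), with the mean of 3 libraries as a line. The ROH libraries lie above the SAR libraries for cx43, cx32.2, cx28.9 and cx32.3, and gja12.2 and gja11 are below 1 TPM in both fractions.

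Gap junction plaques sit beside the adherens junctions and desmosomes of the cell border, and their connexins bind scaffold proteins there. A list of such partner genes matched 30 identifiers, of which 29 were tested. Of these, 4 were called higher in SAR, and 10 were higher in SAR at an adjusted p below 0.05, beside 2.84% and 4.88% of all tested genes. None was higher in ROH at an adjusted p below 0.05 in edgeR, where 0 also had an unadjusted p below 0.05, or was called in DESeq2. The median log2 fold change of the list was 0.46, against 0.03 for all tested genes. The list was chosen with earlier results of these data known, so these counts and this median are not read as an enrichment. The 4 called genes were desmb (2.37, one of the fish desmin genes, the intermediate filament of muscle), dsg2.1 (1.77, a desmosomal cadherin), vcla (1.76, vinculin, which ties junctions to actin) and tjp2b (1.66, a ZO scaffold protein of the kind that binds connexin tails).

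Among the called partner genes, desmb was at 211, 253 and 228 TPM in SAR and at 21.7, 26.7 and 84.3 TPM in ROH. tjp2b was at 183, 141 and 273 TPM in SAR and at 58.6, 71.8 and 45.1 TPM in ROH. For both, every SAR library was above every ROH library, and in ROH replicate 3 desmb stood apart from the other ROH libraries. The other 6 with an adjusted p below 0.05 had smaller log2 fold changes: CAV1 (1.41, caveolin), CDH2 (1.32, N-cadherin of the CM border), pkp3a (1.27, a desmosomal plaque protein), src (1.25, a kinase that phosphorylates Connexin43), tjp1a (0.69, ZO-1) and ctnnb1 (0.66, beta-catenin). CDH2 was at 231, 303 and 324 TPM in SAR and at 103, 98.3 and 131 TPM in ROH. The number called was 1 without SAR replicate 3, 2 without ROH replicate 1, 2 without ROH replicate 2 and 6 without ROH replicate 3. All-gene calls on the SAR side in the same fits were 540, 450, 369 and 585, against 624 with all libraries.

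**Figure D5:**
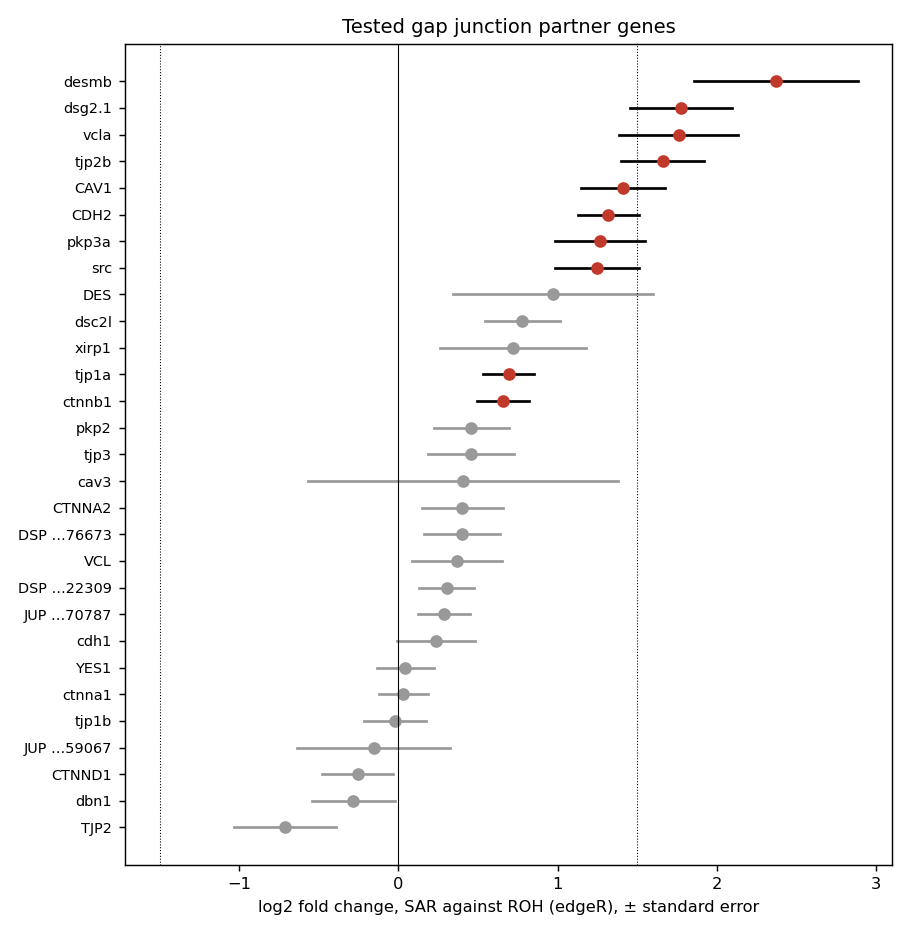
Log2 fold change of SAR against ROH (x axis) with its standard error for the 29 tested gap junction partner genes, from edgeR, ordered by size. Red points have an adjusted p below 0.05, and dotted lines mark a log2 fold change of 1.5 in either direction. All 10 red points lie to the right of 0, from 0.66 for ctnnb1 to 2.37 for desmb.

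The cell types in the fractions differed along with the connexins, and in bulk RNA fewer cells of a type and less RNA per cell cannot be told apart. In SAR, all 4 epicardial markers were called higher (summed TPM 568 to 737 in SAR and 76.8 to 104 in ROH), as were 4 of 9 markers of skin epithelium (9746 to 14196 and 2379 to 3840). The CM markers summed to 3345, 3530 and 1011 TPM in SAR and to 733 to 1288 TPM in ROH, with 1 of 6 called, and the pacemaker markers to 243 to 284 and 100 to 162 TPM, with 2 of 8 called. The 2 called were tbx18 (log2 fold change 3.62, edgeR adjusted p = 0.00235) and hcn4 (2.83, edgeR adjusted p = 0.0479). Most of the pacemaker sum in SAR came from tbx18, bmp4 and tbx2b (means of 98.8, 80.6 and 60.5 TPM), whereas hcn4 had a mean of 4.95 TPM there. Of the 8, 2 had a lower level in SAR, isl1 (log2 fold change -1.56, edgeR adjusted p = 0.163) and TBX3 (-0.55, edgeR adjusted p = 0.451). Most of the skin sum in SAR came from icn2, icn and krt4 (means of 3939, 3769 and 2557 TPM). On the CPM scale, all SAR libraries lay above all ROH libraries for 5 of the 9 skin markers. The epicardial and skin sums were higher in the same libraries as cx30.3, cx43.4 and the 10 partner genes with an adjusted p below 0.05. cdh1 is in both the skin and the partner list. The part of these lists in those results was not tested.

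In ROH, 5 of 7 markers of endothelium and endocardium were called higher (69.5 to 106 TPM in SAR and 274 to 672 in ROH), together with 5 of 5 erythroid markers (12.9 to 14.9 and 11214 to 20090), 5 of 6 leukocyte markers (2.11 to 3.30 and 234 to 403) and 3 of 5 liver markers (66.8 to 2066 and 10564 to 17880). cdh5, a defining gene of endothelium, was at 0.845, 8.53 and 1.40 TPM in SAR and at 40.2 to 150 TPM in ROH. The liver list was at 223, 2066 and 66.8 TPM in SAR replicates 1, 2 and 3. SAR replicate 2 was the highest SAR library in the liver and endothelial lists as well as in cx32.3, cx28.9 and cx43. In TPM it was also the highest SAR library for cx43.4 (101, 112 and 102 in replicates 1, 2 and 3) and cx30.3 (14.8, 23.4 and 16.7). The same held for the skin list (10474, 14196 and 9746) and, by a small margin over replicate 1, the CM list (3345, 3530 and 1011). On the CPM scale of the fit, cx43.4 was highest in SAR replicate 1 (188, 170 and 164). The size of the excess differed between these genes and lists, and its source was not tested. The epicardial and pacemaker lists were highest in SAR replicate 3. No gene of the endothelial, erythroid, leukocyte and liver lists was at 0 in all libraries of a fraction. These lists were higher in ROH, as were cx32.3, cx28.9 and cx43, and their part in those results, and in the values of cx32.2 and gja4, was not tested. Without SAR replicate 2, cx32.3, cx28.9 and cx43 had log2 fold changes of -4.79, -3.61 and -1.39, with adjusted p of 2.64e-04, 0.00226 and 0.00420.

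Depth differed widely between the libraries. The estimated counts summed to 7495108 to 77243214 in SAR and to 999437 to 23495798 in ROH, and the smallest, ROH replicate 1, held 92 counts of cx43.4, 151 of cx43, 60 of cx32.3 and 26 of cx28.9. A floor of 3 counts corresponded to 2.81 CPM in ROH replicate 1 and to 0.0392 to 0.438 CPM elsewhere. Globin genes took 3.04 to 5.05% of TPM in ROH and at most 0.00313% in SAR. This floor describes detection only and did not enter the fit, which models counting error itself. Beyond counting error, the p-values measure the spread between these libraries only, since the labels do not say whether the pools came from separate clutches.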

How the data were processed

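RNA of FACS-sorted GFP+ (SAR) and GFP- (ROH) heart cells was turned into cDNA with SMART-Seq v4 and into Nextera XT libraries, which were sequenced as paired ends. Per the submitters' processing notes and the study's methods, reads were processed with bcl2fastq 2.16.10 and cutadapt. They were quantified against GRCz11 (Ensembl annotation) with Salmon, whose version is not given in the sources used here. The authors' main analysis used a self-organizing map (oposSOM) on quantile-normalized TPM, and DESeq2 served as a check on it. The authors deposited, for each gene and library, TPM values, scaled by Salmon to transcript length and depth. The deposited estimated counts, also from Salmon, need not be whole, since reads that match several transcripts are shared out, and those of 28 of the 40 members were whole in every library. The effective length that the authors deposited as a score column was used only for length offsets. Whether quantification used strand is not given in the sources used here.

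Estimated counts were rounded, filtered with filterByExpr (minimum count 10, minimum total 15), normalized with TMM and tested with edgeR 4.0.16 (glmQLFit, glmQLFTest; R 4.3.3) on all 6 libraries in a model of SAR against ROH without covariates, and p was adjusted with the Benjamini-Hochberg method over 21969 genes. Standard errors were taken from the F statistic and intervals at the 95% level from the fit's degrees of freedom. TPM was used for levels within and between libraries, without a test. The procedure was tested on simulated data with 200 changed genes. Alternatives were DESeq2 1.42.0, RLE factors, library totals only, no filter, at least 10 counts in every library, length offsets, limma 3.58.1 on log2(TPM + 1) and log2(TPM + 0.1) and at a mean TPM of at least 1, globin genes left out, a replicate block, fits without each library, and thresholds of adjusted p of 0.05 and 0.1 without a fold threshold. Totals ranged from 999437 to 77243214 counts per library. Same-numbered SAR and ROH libraries were taken as pairs, since the methods describe pools of hearts whose cells were sorted into both fractions and the labels number the fractions alike. Their deviations from the group means correlated with r = 0.0985, 0.273 and 0.124, each library best with its own number. The reported fit has no block, and the blocked value is given where it changes a call.

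Symbols came from the study's tables, the gene name table and RefSeq (GRCz12tu, used for names and gene order only), and 25 of 40 members matched a single RefSeq symbol. The name table gives 5 capital symbols to 2 identifiers each, which are printed with the identifier. Values per library were given for members with an adjusted p below 0.05, the 10 with the highest mean TPM, the cardiac connexins of textbooks and the pannexins, and the rest by range. The members, the partner list and the marker lists were chosen with earlier results of these data known. 4 members, 2 of them tested, enter the counts and sums but are not reported here. No sequences were printed.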

Additional observations from a re-analysis of the deposited data

How the results depend on the processing

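Over 435 values of 27 tested members under up to 17 alternatives, 399 kept their direction and their side of the threshold, 31 changed sign, 3 passed the threshold and 2 no longer did. The threshold joins adjusted p and fold, so most members, not called in the main fit, could hardly leave their side. The values of cx30.3 (3.11 to 4.32, called in all 16 fits that could hold it) and cx32.3 (-4.79 to -3.63, called in all 17) were the most stable. cx43.4 and cx43 had an adjusted p below 0.05 in 15 and 12 of 17, and their fits above 0.05 are among the 399. With at least 10 counts in every library, 0 members were called higher in SAR, because cx30.3, with 1 count in ROH replicate 1, was not tested. In that fit 2 partner genes were called higher in SAR, as were 215 of all 11306 tested genes. At an adjusted p of 0.05 without a fold threshold, 2 members and 10 partner genes were higher in SAR, beside 4.88% of all tested genes. At 0.1 they were 2 and 11, with 4 members higher in ROH. The all-gene share at 0.1 was not counted, so the counts at 0.1 are not read as a result. With each library left out in turn, members called higher in ROH numbered 1 to 3, the value 1 without SAR replicate 3 and without ROH replicate 2. Partner genes called higher in SAR numbered 1 to 6. All-gene calls moved as well, from 369 (without ROH replicate 2) to 647 (without SAR replicate 2) in SAR. In ROH they ranged from 442 to 1035 in the same 2 fits, out of 22362 and 22208 tested genes. The summed TPM difference without cx43.4 was -0.87. cx28.9 lost its call without SAR replicate 3 (-2.56) and without ROH replicate 2 (-2.60). cx32.2 was called by limma on log2(TPM + 1) (-1.60, adjusted p = 0.0304).

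The replicate block moved all-gene calls from 624 and 813 to 719 and 1040 and called 3 members higher in ROH instead of 2, the added one being gja4 (-2.04, adjusted p = 0.0301), which was also called without SAR replicate 1 (-2.59). It changed no other call among the reported members, nor the number of partner genes called (4 and 0). Library totals in place of TMM shifted the median of all genes from 0.03 to -0.08.

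Signs changed in 9 members, all with a reported adjusted p of 0.679 or more, and the cause was not tested. gjc4a.2 (0.07) was -0.037 with library totals, -0.080 with limma on log2(TPM + 1), with and without the TPM minimum, and -0.13 on log2(TPM + 0.1). GJA5 (ENSDARG00000069450, -0.05) was 0.0099 with length offsets, 0.0068 on log2(TPM + 1), with and without the minimum, and 0.0055 on log2(TPM + 0.1). PANX1 (ENSDARG00000014910, 0.12) was -0.0087 on log2(TPM + 1), with and without the minimum, and -0.047 on log2(TPM + 0.1). PANX2 (-0.09) was 0.11 with length offsets, 0.080 on log2(TPM + 1), with and without the minimum, and 0.19 on log2(TPM + 0.1). gjc4a.1 (0.13) was -0.0040 with length offsets. With each library left out in turn, the log2 fold changes ranged from -0.64 to 0.27 for gjd1a, -0.63 to 0.49 for gjc4a.2, -0.32 to 0.28 for GJA5, -0.19 to 0.78 for GJD2 (ENSDARG00000067999), -0.64 to 1.04 for gje1b, -0.0088 to 0.20 for gjc4a.1, -0.44 to 0.36 for PANX1, -0.24 to 0.17 for PANX2 and -0.48 to 0.16 for gja1a.

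The depth of ROH replicate 1, 999437 counts, limits what can be said of members under about 10 TPM, where this library holds 10 counts or fewer for most.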
